A study of Mus musculus with 4 samples.

Results

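Apolipoproteins are the protein coat of the particles that carry triglyceride and cholesterol through the blood, and the liver makes most of them. Apob is the scaffold on which very-low-density lipoprotein is built, and the microsomal triglyceride transfer protein Mttp loads it with lipid in the endoplasmic reticulum. The smaller apolipoproteins exchange between particles in plasma, where Apoa1 and Apoa2 form high-density lipoprotein, Apoc2 activates lipoprotein lipase, Apoc3 restrains triglyceride clearance, Apoa5 favours it, and Apoe is the ligand by which remnants are taken back into the liver. In the fasted state fatty acids released from adipose tissue reach the liver and are in part sent out again as lipoprotein triglyceride.

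The 10 genes Apoa1, Apoa2, Apoa4, Apoa5, Apob, Apoc1, Apoc2, Apoc3, Apoe and Mttp were taken by gene name from the arrays, with every probe that carries such a name. They made up 10 of 31709 gene names on the array and were read by 12 probes and 30 spots of 43020 gene spots, Apoa2 and Apob having 2 probes each. All livers came from male C57BL/6J mice of 8 to 12 weeks. Food was withheld from the fasted mice for 24 h, and the refed mice had the same 24 h without food followed by 2 h with food, so both conditions share the fast and differ in the meal that followed it. Each of the 4 arrays set 1 fasted liver against 1 refed liver by random pairing, and every liver came from its own animal. Cy5 marked the fasted liver on replicates 1 and 2, and the dyes were swapped on replicates 3 and 4. The comparison addressed which of these genes differ between the fasted state and the first 2 h of refeeding, with no group that had not been fasted.

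Ratios are given on the log2 scale as fasted over refed, where 1 means a 2-fold higher and −1 a 2-fold lower signal in the fasted liver. Probes entered the test if they stood well above background in 1 or both conditions on every array. A probe was called where the adjusted p of limma's moderated test over all kept probes was under 0.10 and the change was at least 1.5-fold. All 12 probes of the 10 genes were above background in both conditions on all 4 arrays, and no spot of theirs was saturated. In whole liver, fewer cells of a type and less RNA per cell cannot be told apart. All 8 hepatocyte markers were above background in every liver. Their median log2 ratio was 0.22, and 1 of them, Tat, was called higher at 0.84 with a limma adjusted p of 0.0453. The arrays differed in brightness, with median raw intensities of 40 to 75 in Cy5 and 44 to 96 in Cy3 and replicate 1 the dimmest. Replicate 3 stood apart in 11 pancreatic acinar markers, whose summed intensity was 38125 in its refed liver and 980 to 1929 in the other 7 livers. The summed intensity of 4 blood markers was 61561 and 90299 in the fasted livers of replicates 1 and 3 and 12586 to 27257 in the other 6 livers. Without replicate 1 or without replicate 3, Apoa5 remained the only gene of the 10 that was called. The part of these markers in the values below was not tested.

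Of the 10 genes, 1 was called higher in the fasted liver and 0 were called lower. Over all 19735 kept probes 1.7% were called higher and 2.07% lower. By unadjusted p under 0.05 in the same limma fit, 3 of the 10 genes were higher and 0 lower, against 9.86% and 11.7% of all kept probes. Significance analysis of microarrays (SAM) rebuilt on the same ratios called 1 higher and 0 lower. The gene called was Apoa5. The median log2 ratio of the 10 genes was 0.16 against −0.00099 over all kept probes, and the same medians were −0.005 and −0.058 when the arrays were centred on their medians in place of loess. The median of the 10 genes was 0.0038 without replicate 2 and 0.27 without replicate 4. The median by array was 0.10, 0.48, 0.01 and −0.08 on replicates 1 to 4.

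**Figure D1:**
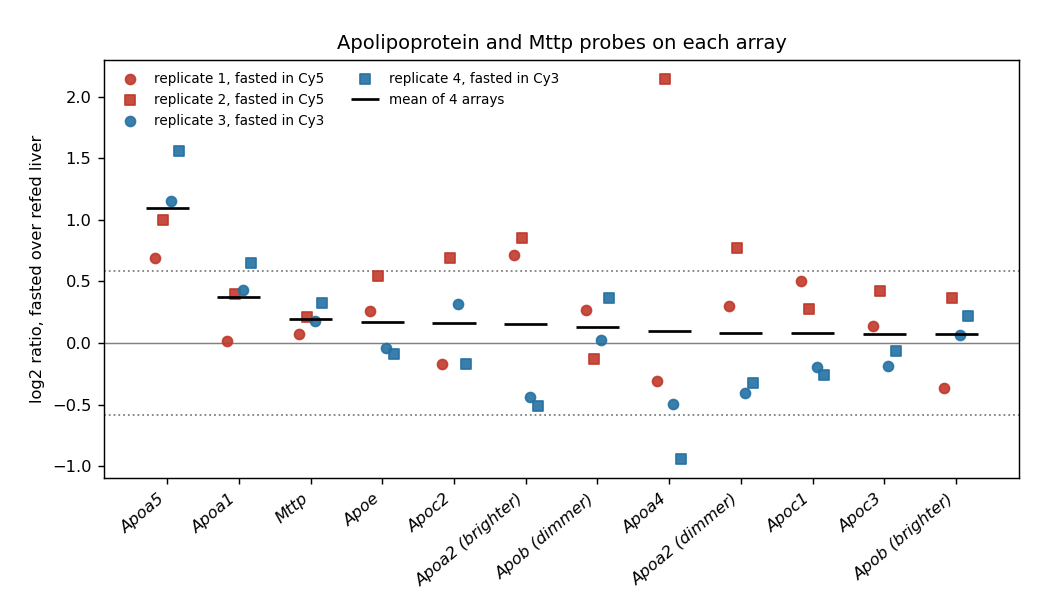
Fasted over refed log2 ratio of each of the 12 probes, ordered by mean; points are the 4 arrays, coloured by the dye of the fasted liver, bars are means and dotted lines mark 1.5-fold. Apoa5 lies between 0.69 and 1.56 on all 4 arrays, Apoa4 reaches 2.14 on replicate 2, and both Apoa2 probes split by dye orientation.

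Apoa5, made almost only in liver and a positive regulator of lipoprotein lipase, was read by a single probe (mm9, chr9:46079943-46080002, plus strand). Its normalized log2 intensity was 12.14, 11.74, 12.06 and 12.03 in the fasted livers of replicates 1 to 4. In the refed livers it was 11.45, 10.74, 10.91 and 10.47. Every fasted liver was above every refed liver.

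The log2 ratio of Apoa5 was 0.69, 0.998, 1.15 and 1.56 on replicates 1 to 4. The mean was 1.10 ± 0.36 (SD, n = 4 arrays), a 2.14-fold higher level in the fasted liver with a 95% interval of 0.76 to 1.44 on the log2 scale, and the limma adjusted p was 0.0144. The rise was present in both dye orientations, with means of 0.84 where the fasted liver carried Cy5 and 1.36 where it carried Cy3. Without replicate 3 the mean was 1.08 with a limma adjusted p of 0.0729. The call was lost in 1 of 25 alternative settings, the background model fitted on all spots, where the ratio was 0.78 and the limma adjusted p 0.175.

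Apoa5 lies in a cluster on chromosome 9 with Apoa1, Apoc3 and Apoa4, so the 250 bases before the annotated start sites of Apoa5 and of the cluster's other plus-strand genes are shown side by side. They are RefSeq sequences of GRCm38.p6, plus strand, and capitals mark a TATAAA box and a CACGTG E-box.
Apoa5, chr9:46268358-46268607: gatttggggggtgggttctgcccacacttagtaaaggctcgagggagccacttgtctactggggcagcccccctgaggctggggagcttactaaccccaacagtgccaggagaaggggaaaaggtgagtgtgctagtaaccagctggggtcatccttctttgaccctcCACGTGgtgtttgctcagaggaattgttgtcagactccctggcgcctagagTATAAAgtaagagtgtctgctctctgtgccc
Apoa1, chr9:46228380-46228629: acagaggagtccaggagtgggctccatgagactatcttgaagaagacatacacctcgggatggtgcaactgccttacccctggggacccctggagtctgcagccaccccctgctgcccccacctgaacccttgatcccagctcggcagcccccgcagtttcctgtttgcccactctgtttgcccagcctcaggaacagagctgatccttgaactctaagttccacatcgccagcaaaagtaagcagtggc
Apoa4, chr9:46240594-46240843: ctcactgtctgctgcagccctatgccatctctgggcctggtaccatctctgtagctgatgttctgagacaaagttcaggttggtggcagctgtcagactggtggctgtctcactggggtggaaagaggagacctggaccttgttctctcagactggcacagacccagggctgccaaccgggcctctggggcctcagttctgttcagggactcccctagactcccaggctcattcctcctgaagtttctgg

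Short motifs were looked for on both strands of the upstream 250 bases of 8 of the 10 genes, Apoc1 and Apoc3 having no entry in the table used. The Apoa5 window holds TATAAA starting 31 bases and CACGTG starting 82 bases before the start site. Its second annotated start site lies 25 bases further on, and the same motifs start 56 and 107 bases before it. The 8 genes have 12 windows, since Apoe has several start sites and Apoa2 and Apoa5 have 2 each. CACGTG was in 6.02% of 32851 promoter windows and in 2 of the 12, both of Apoa5. TATAAA was in 12.4% of all windows and in 5 of the 12, both of Apoa5 and 1 each of Apoa2, Apob and Apoe. The short form of the cAMP response element, TGACG, was in 17.8% of all windows and in 1 window each of Apoa2, Apoc2 and Mttp, and the full element TGACGTCA, which contains the short form, was in 1.55% of all windows and in none of the 8 genes. The nuclear receptor core motif AGGTCA was found in 14% of all windows and in 1 each of Apoa2 and Apoc2, and the forkhead motif GTAAACA in 3.17% and in 1 of Apoa2. A match describes the letters only.

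The neighbours of Apoa5 in the cluster were not called. Apoa1, the main protein of high-density lipoprotein (probe at mm9 chr9:46037921-46037980), had log2 ratios of 0.02, 0.40, 0.43 and 0.65 on replicates 1 to 4. All 4 were above 0, but the fasted levels of 15.09 to 15.49 overlapped the refed levels of 14.50 to 15.47, both livers of replicate 1 being high. The mean was 0.37 ± 0.26 (SD, n = 4), a 1.30-fold difference with a 95% interval of 0.10 to 0.65 and a limma adjusted p of 0.117. With a term for the dye the limma adjusted p was 0.0332, still under the 1.5-fold limit. The probe was printed 10 times per array, and the SD between its spots was 0.12 to 0.17, below the SD of 0.26 between arrays.

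Apoc3, an inhibitor of triglyceride clearance on the opposite strand (mm9, chr9:46041134-46041193), had log2 ratios of 0.14, 0.43, −0.19 and −0.07. The mean was 0.08 ± 0.27 (SD, n = 4) with a limma adjusted p of 0.770. The 95% interval was −0.20 to 0.35, and fasted and refed levels overlapped.

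Apoa4, an apolipoprotein of chylomicrons and of nascent liver particles, stood out by its spread between livers and not by its mean. Its probe spans a splice junction (mm9, chr9:46049661-46050404, 60 bases drawn from a span of 744 bases) and is shown because this single sequence carries the values that follow.
Apoa4 probe, mm9 plus strand, 5′ to 3′: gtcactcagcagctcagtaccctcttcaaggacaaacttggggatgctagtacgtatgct

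The normalized log2 intensity of Apoa4 was 11.52, 10.85, 8.60 and 8.71 in the fasted livers of replicates 1 to 4. In the refed livers it was 11.82, 8.71, 9.10 and 9.66. Both livers of replicate 1 and the fasted liver of replicate 2 were high and the other 5 were low, and the range over the 8 livers was 9.32-fold.

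The raw intensities of Apoa4 ran from 377 in the refed liver of replicate 2 to 2847 in the refed liver of replicate 1. The highest value was thus on the dimmest array. The log2 ratios were −0.31, 2.14, −0.50 and −0.94, with a mean of 0.10 ± 1.39 (SD, n = 4), a 95% interval of −1.07 to 1.27 and a limma adjusted p of 0.939. Without replicate 2 the mean was −0.58 with a limma adjusted p of 0.131, so the sign of the mean rested on that array.

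The SD of Apoa4 levels was 1.49 between fasted livers and 1.39 between refed livers. These exceeded the SD of 99.97% and 99.91% of kept probes, whose median SDs were 0.13 and 0.15. The other 11 probes of the 10 genes reached SDs of at most 0.313 in the fasted and 0.474 in the refed livers. Apoa4 is also a major product of small intestine. Of 9 intestinal markers 7 were above background in no liver, and Anpep, also made by hepatocytes, lay between 12.01 and 12.36 in all 8 livers.

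The remaining intestinal marker was the fatty acid binding protein Fabp2. Its level was 14.05, 13.71, 12.80 and 13.06 in the fasted and 14.57, 13.17, 12.68 and 12.57 in the refed livers of replicates 1 to 4. The summed intensity of the 9 markers was 12294 to 21672 in the fasted and 11474 to 29166 in the refed livers, highest in the refed liver of replicate 1. The lipid droplet gene Cidec, chosen after its values were seen, had levels of 9.87, 9.62, 7.64 and 8.25 in the fasted and 10.11, 7.37, 7.56 and 8.56 in the refed livers by its brighter probe. Cidec came from a list of 6 adipose markers, of which 2 were kept. The other kept one, Cfd, had log2 ratios of −0.22, 0.55, −1.37 and 0.42 on replicates 1 to 4. For Apoa4, Fabp2 and Cidec alike, both livers of replicate 1 and the fasted liver of replicate 2 were the 3 highest of the 8. Fabp2 differed from Apoa4 elsewhere, with log2 ratios of 0.13 and 0.49 on replicates 3 and 4, where those of Apoa4 were below 0. Fabp2 and Cidec were named after their values were seen, so their match with Apoa4 is no support for a shared pattern. How many other kept probes share it was not counted. What set the 3 livers apart was not tested.

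**Figure D2:**
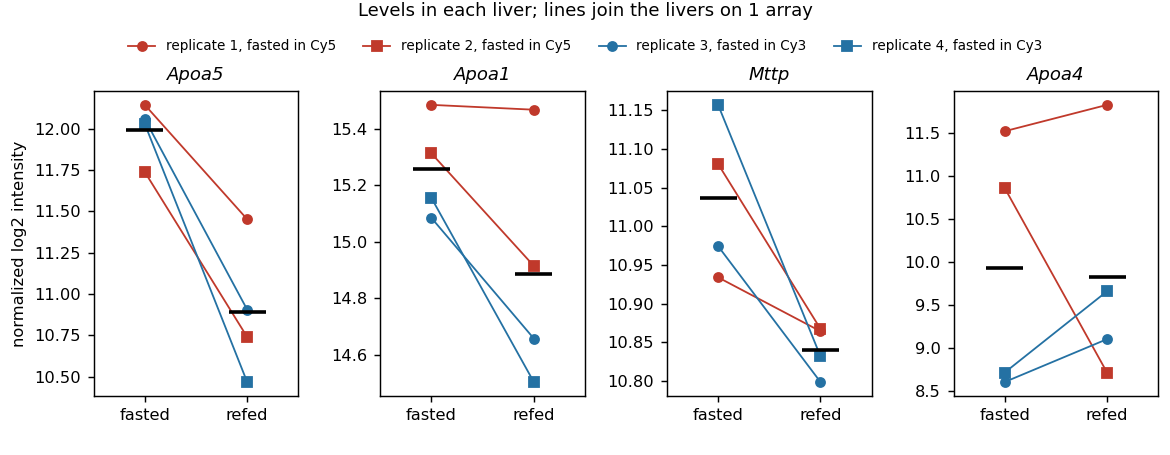
Normalized log2 intensity of Apoa5, Apoa1, Mttp and Apoa4 in each fasted and refed liver, with a line joining the livers of 1 array, a bar at each mean and a separate scale per gene. All 4 lines fall from fasted to refed for Apoa5, Apoa1 and Mttp, while Apoa4 spans 8.60 to 11.82 with no shared direction.

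Among the genes of particle assembly, neither Mttp nor Apob was called. Mttp (probe at mm9 chr3:137753868-137753927, minus strand) had levels of 10.93, 11.08, 10.97 and 11.16 in the fasted livers of replicates 1 to 4. In the refed livers the levels were 10.86, 10.87, 10.80 and 10.83. Every fasted liver was above every refed liver, by small steps.

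The log2 ratios of Mttp were 0.07, 0.21, 0.18 and 0.33, a mean of 0.20 ± 0.11 (SD, n = 4) or 1.15-fold. The 95% interval was 0.01 to 0.38 and the limma adjusted p 0.202. The interval lay under the 1.5-fold limit of the call. With a term for the dye the limma adjusted p was 0.0881.

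Apob was read by 2 probes, which lie on either side of the codon at which the deaminase Apobec1 edits the Apob transcript to the shorter Apob48 form. Their sequences are given because they report different stretches of the same very long transcript, starting at its bases 4473 and 13457.
Apob probe at base 4473, mm9 chr12:8012697-8012756, plus strand: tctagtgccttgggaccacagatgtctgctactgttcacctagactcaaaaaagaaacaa
Apob probe at base 13457, mm9 chr12:8023194-8023253, plus strand: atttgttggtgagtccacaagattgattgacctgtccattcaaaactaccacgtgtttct

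The 5′ Apob probe had log2 ratios of 0.27, −0.13, 0.03 and 0.36, with a mean of 0.13 ± 0.22 (SD, n = 4) and a limma adjusted p of 0.534. The 3′ probe had −0.37, 0.37, 0.07 and 0.22, with a mean of 0.07 ± 0.32 and a limma adjusted p of 0.821. Their 95% intervals, −0.12 to 0.38 and −0.24 to 0.38, stay within the 1.5-fold limit in both directions.

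The difference between both Apob probes on each array, 3′ minus 5′, was −0.64, 0.50, 0.04 and −0.14 and had no shared sign. The exact sign-flip p was 0.75, but the smallest p this test allows on 4 arrays is above 0.10. The test could thus call no difference and says nothing for or against one between the probes. Base editing does not alter the length of the transcript, and neither probe reads the edited base.

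Of the remaining surface apolipoproteins, Apoa2, Apoc1 and Apoe were above 0 on both arrays where the fasted liver carried Cy5 and below 0 on both where it carried Cy3. Apoa2, the second protein of high-density lipoprotein, had log2 ratios of 0.71, 0.85, −0.44 and −0.51 by its brighter probe (mm9, chr1:173156445-173156504). The mean was 0.15 ± 0.73 (SD, n = 4) with a limma adjusted p of 0.804. Its dimmer probe (mm9, chr1:173156320-173156379) gave 0.30, 0.77, −0.41 and −0.33, with a mean of 0.08 ± 0.56 and a limma adjusted p of 0.873.

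Apoc1, Apoc2 and Apoe share a cluster on chromosome 7. Apoc1, an inhibitor of particle uptake and of lipases (mm9, chr7:20274831-20274890), had log2 ratios of 0.51, 0.28, −0.19 and −0.26, with a mean of 0.08 ± 0.37 (SD, n = 4) and a limma adjusted p of 0.809. Apoe (mm9, chr7:20281732-20281791), printed 10 times per array, had 0.26, 0.54, −0.04 and −0.09, with a mean of 0.17 ± 0.29 and a limma adjusted p of 0.490. Apoc3 above had the same order of signs.

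The dye effect, the mean log2 excess of Cy5 over Cy3 after loess, was 0.63 for the brighter Apoa2 probe and 0.45 for the dimmer one. It was 0.31 for Apoc1, 0.23 for Apoe and 0.21 for Apoc3. The limma adjusted p of these effects was 0.00812, 0.0493, 0.0547, 0.104 and 0.136. Apoa4 had 0.82 with a limma adjusted p of 0.212 and the widest spread between arrays.

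Past the adjusted p limit of 0.10, 3 of the 12 probes had a dye effect, both of Apoa2 and that of Apoc1, against 14.7% of all kept probes. Only 1 of 19735 kept probes was brighter than the brighter Apoa2 probe, 4 were brighter than Apoe and 29 than Apoc1. The part of scan brightness in the dye effects was not tested. Of the 8 hepatocyte markers 3 were above 0 on replicates 1 and 2 and below 0 on replicates 3 and 4, and 2, Cps1 and Tat, were above 0 on all 4 arrays. The marker medians were 0.49 and 0.50 on replicates 1 and 2 and −0.08 and −0.12 on replicates 3 and 4, and their part in the dye effects was not tested. The livers of replicates 1 and 2 were other animals than those of replicates 3 and 4, so dye orientation and liver pair cannot be told apart.

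**Figure D3:**
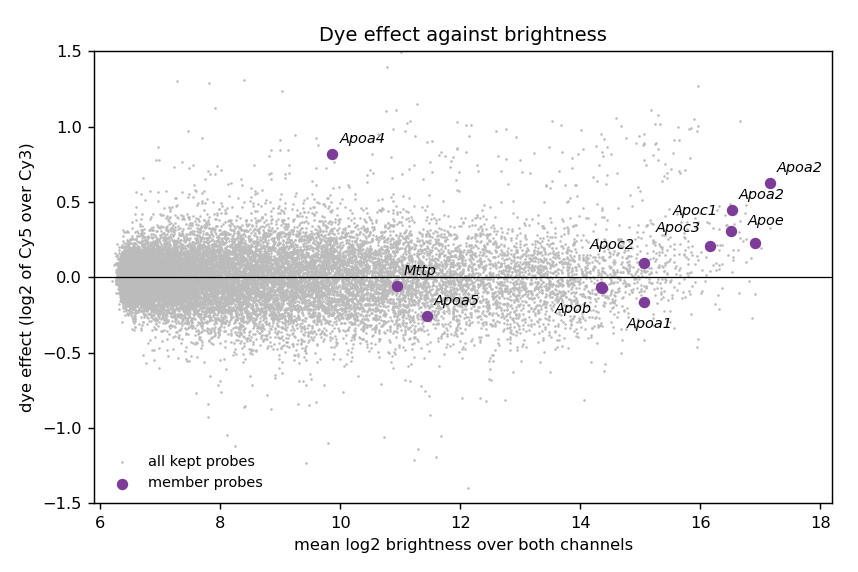
Dye effect (mean log2 of Cy5 over Cy3 over the 4 arrays) against mean log2 brightness for all 19735 kept probes in grey and the 12 probes of the 10 genes in purple; 1 probe lies outside the drawn range. Apoa2, Apoc1, Apoe and Apoc3 have effects of 0.21 to 0.63, the dimmer Apoa4 has 0.82, and Apoa1, Apoa5, Mttp and both Apob probes lie between −0.26 and −0.05.

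For Apoe, which macrophages also make, 9 macrophage markers had summed intensities of 14330 to 20205 in the fasted and 9661 to 17344 in the refed livers. The median log2 ratio of the 8 kept ones was 0.54, −0.21, 0.38 and −0.19 on replicates 1 to 4, and limma and SAM called 0 of them, with 0 at an unadjusted p under 0.05. Their part in the Apoe values was not tested.

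Apoc2, the activator of lipoprotein lipase (mm9, chr7:20257027-20257086), followed no dye orientation. Its log2 ratios were −0.17, 0.69, 0.31 and −0.17, with a mean of 0.16 ± 0.42 (SD, n = 4), a 95% interval of −0.22 to 0.55 and a limma adjusted p of 0.627. Fasted and refed levels overlapped.

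Ordered by mean log2 ratio, the 10 genes ran Apoa5, Apoa1, Mttp, Apoe, Apoc2, Apoa2, Apoa4, Apoc1, Apoc3 and Apob. Of the 45 pairs of genes 8 differed with 1 sign on all 4 arrays, and Apoa5 was above 7 of the other 9 genes in this way. The exceptions were Apoa2 on replicate 1 and Apoa4 on replicate 2. The neighbours Apoa5 and Apoa1 differed by 0.67, 0.60, 0.72 and 0.91 on replicates 1 to 4, a mean difference in log2 ratio of 0.73 ± 0.13 (SD, n = 4). A pair with 1 sign has the smallest p that the exact sign-flip test allows on 4 arrays, 2 of 16 sign patterns, so the test could call no pair and says nothing for or against a difference between neighbours.

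The rest of the pathway was followed with 5 lists of 83 genes, of which 77 had a kept probe, read by the brightest probe of each gene. Limma called 4 of the 77 genes higher and 5 lower in the fasted liver, and their median log2 ratio was 0.03. Over all 19735 kept probes 1.7% were called higher and 2.07% lower. By unadjusted p under 0.05 in the limma fit, 5 of 19 assembly genes were higher and 3 lower. The counts were 3 and 2 of 16 plasma genes, 2 and 2 of 9 uptake receptors, and 8 and 3 of 23 transcription factors. At that cut 9.86% of all kept probes were higher and 11.7% lower. The lists were chosen with earlier results of these data known. Of 10 kept genes of other apolipoproteins and of the apolipoprotein B receptor Apobr, limma called 0 and SAM called 0, with 1 at an unadjusted p under 0.05. The log2 ratio was 0.06 ± 0.05 (SD, n = 4) for Apoc4, the neighbour of Apoc2, and −0.0041 ± 0.28 for Apom, a carrier protein of high-density lipoprotein.

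Among 19 kept genes of assembly and secretion, 1 was called higher and 1 lower. Lpcat3, which puts polyunsaturated chains into phospholipids of the nascent particle, had log2 ratios of 0.13, 0.68, 0.99 and 1.20, a mean of 0.75 ± 0.47 and a limma adjusted p of 0.0629. Tmem41b, a lipid scramblase of the endoplasmic reticulum, had a mean of −1.03 ± 0.35 and a limma adjusted p of 0.0159 by its brighter probe, and −0.40 by its dimmer one, which was not called.

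P4hb, the protein disulfide isomerase that is the partner subunit of Mttp, was lower on all 4 arrays at −0.30, −0.51, −0.54 and −0.72. The mean was −0.52 ± 0.17 (SD, n = 4) with a limma adjusted p of 0.0293, short of the 1.5-fold limit. The mean of Mttp, 0.20 with a limma adjusted p of 0.202, had the opposite sign, and neither gene was called. Apobec1 had 0.23, 0.08, 0.40 and 0.67, a mean of 0.35 ± 0.25 and a limma adjusted p of 0.131.

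Among 16 kept genes that act on particles in plasma, Angptl4 and Angptl8, inhibitors of lipoprotein lipase that act in the fasted and the fed state, had the values of greatest size in the lists. Angptl4 had log2 ratios of 2.93, 3.66, 2.55 and 2.67, with a mean of 2.95 ± 0.50 and a limma adjusted p of 0.00255. Angptl8 had −3.28, −3.63, −2.35 and −2.86, with a mean of −3.03 ± 0.55 and a limma adjusted p of 0.00282.

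The acute-phase apolipoproteins Saa1 and Saa2, named after their values were seen and near-identical in sequence, had means of 1.09 ± 0.97 and 1.28 ± 1.20 that did not pass, with limma adjusted p of 0.127 and 0.142. The log2 ratios on replicates 1 to 4 were 0.69, 0.15, 2.42 and 1.12 for Saa1. For Saa2 they were 0.98, −0.03, 2.88 and 1.29, so both were highest on replicate 3.

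Of 23 kept transcription factors of the pathway, 2 were called higher and 1 lower. Cebpb had a mean log2 ratio of 1.40 ± 0.43 with a limma adjusted p of 0.0117. Ppargc1a, the coactivator of the fasting response, had 1.20 ± 0.16 with a limma adjusted p of 0.00342 by its brighter probe, and 0.45 by its dimmer one, which was not called. Srebf1, the driver of lipid synthesis after a meal, had −0.93 ± 0.44 with a limma adjusted p of 0.0315. Creb3l3, a liver factor known to act on Apoa5 and Apoa4, had 0.60, 0.76, 0.00 and 0.07, with a mean of 0.36 ± 0.38 and a limma adjusted p of 0.223.

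**Figure D4:**
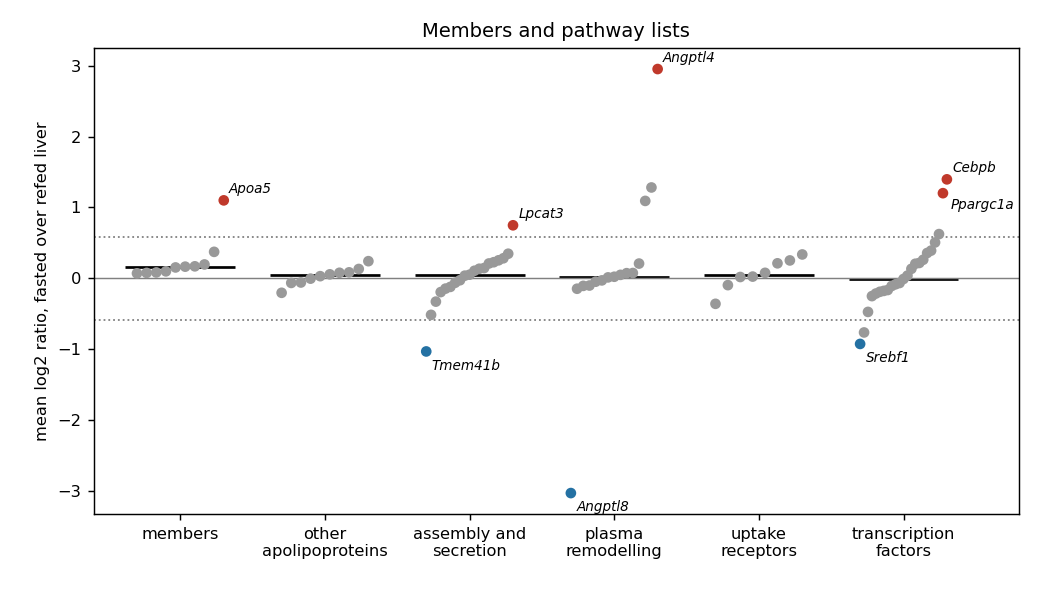
Mean log2 ratio over 4 arrays of the 10 genes and of 75 of the 77 kept genes of the 5 pathway lists, with red for genes called higher and blue for genes called lower in the fasted liver, bars at the medians of the genes drawn and dotted lines at 1.5-fold. Apoa5 is the only coloured point among the 10 genes, while Angptl4 at 2.95 and Angptl8 at −3.03 lie farthest from 0.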

How the data were processed

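RNA of 4 fasted and 4 refed livers was hybridised by the authors to 4 Agilent 2-colour arrays, 200 ng per liver, 1 fasted and 1 refed liver per array. The deposited scanner files hold spot intensities from Feature Extraction, and the deposited table holds log2 ratios that the authors normalized by print-tip loess in limma (version not given in the sources used here). The authors called genes by SAM at a false discovery rate of 10% and 1.5-fold.

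Here median intensities were used. Spots with a local background over 3 times the array's median were left out (55 of 177588), the rest corrected by normexp (offset 50), outlier-flagged spots left out, and ratios normalized by loess (span 0.3, control spots at weight 0) in limma 3.58.1 under R 4.3.3. Signs were turned by dye orientation. Of 39429 probes 19735 were kept, and limma was fitted to the 4 ratios of all of them with Benjamini-Hochberg adjustment. Levels per liver came from quantile normalization of the average intensity between arrays, and scan brightness was ranked over probes only beside the dye effects, not as transcript level. All arrays were on 1 slide, and their number limits the precision. In simulated ratios without a dye effect for 19735 probes, 92.5% of 200 probes changed by 1.5 on the log2 scale were recovered. That change is larger than the highest mean of the 10 genes, 1.10, so this share does not apply to smaller changes.

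The 10 genes and the lists were chosen with earlier results of these data known. Named were all probes of the 10 genes, the list genes called (2 are not reported here), and Apoc4, Apom, Apobec1, P4hb and Creb3l3. Cidec, Fabp2, Anpep, Cps1, Tat, Saa1 and Saa2 were named after their values were seen. Alternatives changed background, normalization, filters, test, probe choice and each replicate in turn. Rows of the deposited table were matched to spots by row number. Across spots its columns then correlated with the ratios at 0.53 on replicate 1 and at 0.92 to 0.96 on replicates 2 to 4. The reason for the lower value on replicate 1 was not tested.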

Additional observations from a re-analysis of the deposited data

How the results depend on the processing

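The ratios of Apoa5, Apoa1, Mttp and Apoe kept their sign in all 22 alternatives, and ran from 0.78 to 1.24, 0.22 to 0.49, 0.058 to 0.24 and 0.0048 to 0.31, the lowest of the last 3 under median centring. With the background model fitted on all spots, probes called higher and lower fell to 5 and 15, genes of the 10 called higher to 0, and pathway genes to 1 and 1. With plain subtraction 550 probes were called higher and 713 lower, with Agilent's processed signals 686 and 904, without a fold limit 933 and 1206, and with a 2-fold limit 99 and 132. Median centring called 635 probes lower and 8 pathway genes lower. Pathway genes called lower were 8 without a fold limit and 2 at 2-fold, and those called higher were 7 with a dye term and 7 by SAM.

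Median centring turned the ratio of Apoa4 to −0.017, Apob to −0.087, Apoc1 to −0.083, Apoc3 to −0.088 and Apoa2 to −0.015. No normalization turned Apob to −0.047, Apoc1 to −0.043 and Apoc3 to −0.048. The cause was not tested. With each replicate left out in turn, 203 to 413 probes were called higher and 251 to 525 lower (203 and 251 without replicate 3), 1 of the 10 genes higher each time, 3 to 5 pathway genes higher and 3 to 6 lower (3 without replicate 2). The ratios then ran from −0.58 to 0.45 for Apoa4, −0.079 to 0.38 for Apoa2, −0.058 to 0.20 for Apoc1, −0.011 to 0.28 for Apoc2, −0.028 to 0.22 for Apob and −0.039 to 0.17 for Apoc3. Without replicate 1 Apoc1 and Apoa2 were below 0 (Apoa2 at −0.032), and without replicate 2 the lowest values of Apoa4, Apoc2, Apob, Apoc3 and Apoa2 were reached. Each ratio pairs the livers of 1 array. Channels fitted separately, with no replicate block, gave a limma adjusted p of 0.0122 for Apoa5.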
